A study of Homo sapiens with 6 samples.

Results

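The transcripts described here encode the ESCRT machinery (endosomal sorting complexes required for transport) and the proteins that mark or form exosomes, 39 genes in all, each picked by its symbol from the 36887 genes of the count table. They comprise the subunits of ESCRT-0 to ESCRT-III, the ATPase VPS4 and its cofactor, ALIX and the syntenins, 5 tetraspanins, a neutral sphingomyelinase and the flotillins. RNA was measured in 3 samples transfected with the control siRNA siNC and in 3 transfected with siYKT6, an siRNA against the SNARE gene YKT6. All 6 samples of 5637 cells, an established bladder carcinoma line of human origin, were collected 48 h after transfection and carry the same batch label. Neither the labels nor the methods state whether the replicates were separate cultures, or whether 1 siYKT6 sequence was used in all 3 knockdown samples. The p values thus cover only the spread among these 6 samples, which may be technical. The study used the comparison to ask how YKT6 promotes the growth and spread of bladder cancer, and the question here is what its knockdown did to the transcripts of this machinery.

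ESCRT complexes act in sequence on the membrane of the endosome. ESCRT-0 collects ubiquitinated cargo, ESCRT-I and ESCRT-II bend the membrane inward, and ESCRT-III filaments close the neck of the bud, which VPS4 then takes apart. The result is a multivesicular body, whose vesicles are either degraded in the lysosome or released as exosomes when the body meets the plasma membrane, and the same machinery cuts the bridge between daughter cells at the end of division. Tetraspanins such as CD63, CD9 and CD81 span the membrane of exosomes and serve as their markers, and YKT6 is among the SNAREs linked to exosome release.

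The 3 siNC samples had 64.5, 65.3 and 68.2 CPM of YKT6 (CPM are counts rescaled to the library size, with edgeR's TMM factors), and the 3 siYKT6 samples 17.7, 19.4 and 17.3 CPM. The groups did not overlap, and 27.5% of the siNC level remained (two-sided exact permutation test, p = 0.1, which is the lowest value possible with 3 samples a group). The 6 libraries held 45205238 to 64982015 counts, and epithelial markers were abundant in all of them, at a summed 5920 to 6080 CPM for 10 genes in siNC samples and 3860 to 4110 CPM in siYKT6 samples. The summed level was 4.51 to 5.22 CPM in siNC and 3.48 to 4.40 CPM in siYKT6 samples for 6 leukocyte markers, 0.861 to 1.39 and 1.56 to 1.60 CPM for 4 endothelial markers, and 30.1 to 31.0 and 33.8 to 36.1 CPM for 6 fibroblast markers, with no marker of these lists at 0 in all libraries. COL1A1, a collagen gene, made up most of the last sum. Their part in the results was not tested. A CPM is a share of the RNA of a whole culture, so fewer cells that use a gene and less of its RNA per cell cannot be told apart.

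After YKT6 knockdown, single genes of the ESCRT and exosome machinery moved in both directions by small amounts, and no complex had all its members called in the same direction. All 39 genes had enough counts to be tested, of which 11 rose, 9 fell and 19 were not called, a call being an adjusted p under 0.05 in the quasi-likelihood test of edgeR over all genes (SE is used below for standard error). These 20 make 51.3% of the members, against 30.8% of all 21036 genes tested (14.6% higher and 16.3% lower). Among tested genes with a mean of at least 10 CPM, a level chosen after the values were seen, 49.7% were called (23.5% higher and 26.2% lower), and 58.8% of the 34 members above that level. The members' share of calls lay nearer to that of other well expressed genes than to that of all genes. The median log2 fold change (siYKT6 over siNC) of the members was 0.07, against 0.00 for all genes tested, and the extremes among called members were the fall of STAM2 (-0.53) and the rise of FLOT1 (0.32). Of the 39 members, 4 were called with a change of at least 1.2-fold, against 3431 of all 21036 genes tested. Among the 9456 genes of at least 10 CPM, 1774 were. At 1.5-fold or more, 0 members, 963 of all genes and 239 of those of at least 10 CPM were called. Without siYKT6 replicate 3, 7 members were called higher, and without siNC replicate 3 or siYKT6 replicate 1, 5 were called lower. The siNC and siYKT6 samples did not overlap in CPM for 26 of the 39 members and for 41.8% of all genes tested. Above a mean of 10 CPM this held for 25 of the 34 members and for 58.6% of all genes.

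Of the 20 called members, 11 stayed called in each of the 14 other analyses run, which changed the scaling, the filter or the tool, halved the counts, paired the replicates or left out 1 sample. They are STAM2, CD81, CHMP4C, CHMP5 and VPS37B, which fell, and IST1, SDCBP, VPS4B, MVB12B, CHMP6 and FLOT1, which rose. The calls of HGS, SNF8, CHMP2B, PDCD6IP, CHMP1B, CHMP4A, CHMP4B, FLOT2 and CD63 each ended without at least 1 of the 6 samples, and those of HGS, SNF8, CHMP2B and PDCD6IP also with upper quartile scaling or no filter on low counts. The plot of CPM by sample shows the 11 genes.

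**Figure D1:**
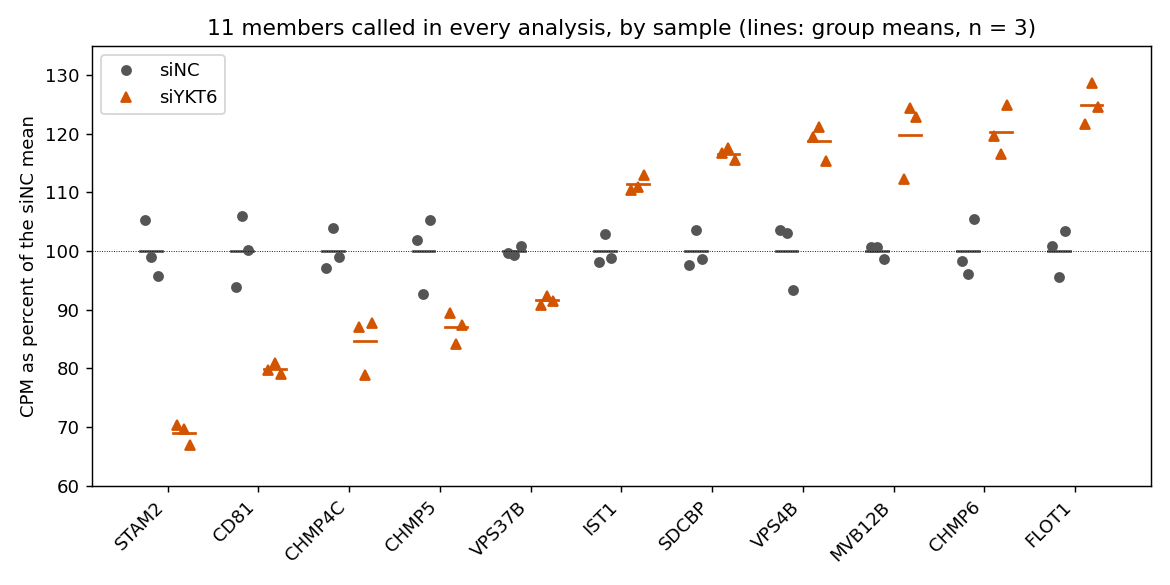
CPM of 11 members in each sample, as a percent of the mean of the siNC samples (circles, siNC; triangles, siYKT6; lines, group means, n = 3). The genes were picked because they stayed called in every analysis, a choice that favours groups that lie apart. The siYKT6 samples lie apart from the siNC samples in each gene, from a mean of 69.1% of the siNC level for STAM2 to 125% for FLOT1.

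In ESCRT-0, STAM2 fell while its paralog STAM did not pass the test. STAM2 (chromosome 2 of GRCh38, 152116801 to 152175992, minus strand) encodes an adaptor that binds ubiquitin and pairs with HGS on the early endosome. The siNC samples had 42.9, 40.3 and 39.0 CPM of STAM2, and the siYKT6 samples 28.6, 28.3 and 27.3 CPM. All siYKT6 samples were well below the lowest siNC sample, with a log2 fold change of -0.53 (SE 0.0459, edgeR adjusted p = 1e-08). STAM, which carries out the same step, had 31.0, 31.3 and 32.1 CPM in siNC and 32.6, 35.2 and 32.4 CPM in siYKT6 samples (log2 fold change 0.09, edgeR adjusted p = 0.168). HGS, the subunit that binds phosphatidylinositol 3-phosphate and brings the complex to the endosome, fell from 130.5 ± 2.37 to 122.0 ± 3.02 CPM (SD, n = 3, edgeR adjusted p = 0.036). Without siNC replicate 1 or 3, or siYKT6 replicate 1 or 2, the call of HGS ended.

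The 3′ UTR of STAM2 holds a 7-base word, CTCTACA, at 2 places, and those of CHMP4C and CHMP5, members that also fell, hold it once each. The other 6 members that fell lack it. The sites of STAM2 and CHMP5 are shown to give the word its context in these genes, and the site of CHMP4C is not printed. They were read from the canonical transcripts of GENCODE v44, with the word in capitals and its flanks in lower case, 29 bases each.
STAM2 site 1, chr2:152120295-152120323, minus strand: ctttcagatttCTCTACAtaaatctagat
STAM2 site 2, chr2:152117329-152117357, minus strand: caagaccctatCTCTACAaaaattttaaa
CHMP5 site, chr9:33281175-33281203, plus strand: tgacagtgtaaCTCTACAgtctcaaaatg
The word was picked from these same data. Of 16226 words of 7 bases, searched on the transcribed strand, it is the one whose presence in the 3′ UTR went most strongly with lower values in siYKT6 samples, so the values that follow are a description and no independent evidence. Of 13295 tested genes with a canonical 3′ UTR, 10.2% hold the word, and among these 1357 genes 38.2% were called lower and 12.6% higher, against 19.1% and 18.7% of the other 11938. Of the members, 3 hold it in the canonical transcript and all 3 fell, whereas of the 36 others 6 fell and 11 rose. MVB12B, which rose, holds the word only in another transcript. Whether the word has a part in these falls was not tested.

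In ESCRT-I, which passes ubiquitinated cargo on from ESCRT-0, the core subunits TSG101 and VPS28 did not pass the test, and 2 of the exchangeable subunits were called, in opposite directions. TSG101, the core subunit that also binds viral and midbody proteins, was at 27.4, 29.5 and 31.1 CPM in siNC and at 29.3, 28.8 and 30.2 CPM in siYKT6 samples. Its groups overlapped fully (log2 fold change 0.0018, SE 0.0496, edgeR adjusted p = 0.984). VPS28, the subunit that contacts ESCRT-II, was at 6.64 ± 0.632 and 7.13 ± 0.392 CPM (SD, n = 3, edgeR adjusted p = 0.454). MVB12B (chromosome 9, 126326849 to 126507041, plus strand), a regulatory subunit, had 16.3, 16.3 and 16.0 CPM in the controls. In the siYKT6 samples it was at 18.2, 20.2 and 19.9 CPM, all above the siNC samples. The log2 fold change was 0.26 (SE 0.0561, edgeR adjusted p = 0.001). Its paralog MVB12A was near the lower end of the members at 1.91 and 2.40 CPM and did not pass the test (log2 fold change 0.31, edgeR adjusted p = 0.131). Of the 3 VPS37 paralogs, which take the same place in the complex, VPS37B fell from 79.4, 79.1 and 80.3 CPM to 72.3, 73.5 and 72.8 CPM (log2 fold change -0.13, edgeR adjusted p = 0.0081). VPS37A and VPS37C had log2 fold changes of -0.0058 and 0.07 and were not called.

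In ESCRT-II, a bridge between ESCRT-I and ESCRT-III, the 3 subunits had log2 fold changes of -0.0061 (VPS25), -0.09 (VPS36) and -0.11 (SNF8). SNF8 was the only one called, at 93.8, 92.4 and 91.6 CPM in siNC and 81.3, 86.2 and 90.5 CPM in siYKT6 samples. The highest siYKT6 sample came within about 1 CPM of the lowest siNC sample, and the adjusted p of 0.047 from edgeR's quasi-likelihood test lay just under the threshold. The call ended without siNC replicate 1, 2 or 3, or siYKT6 replicate 1 or 2. It also ended with DESeq2 (adjusted p = 0.066), with DESeq2's size factors in edgeR (adjusted p = 0.051) and with the replicate number as a block in edgeR (adjusted p = 0.056).

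ESCRT-III, whose subunits polymerize into the filaments that cut the membrane neck, had 12 members, of which 5 rose and 3 fell. The share called, 66.7%, was the same in ESCRT-0, in ALIX with the syntenins and in SMPD3 with the flotillins, groups of only 3 genes each. Of all genes tested 30.8% were called. Of those with a mean of at least 10 CPM, which all 12 ESCRT-III members had, 49.7% were. CHMP6 (chromosome 17, 80991598 to 81009517, plus strand), which ESCRT-II recruits to start the filament, rose most. It was at 32.9, 32.1 and 35.3 CPM in siNC samples and at 40.0, 39.0 and 41.7 CPM in siYKT6 samples, without overlap (log2 fold change 0.26, SE 0.0461, edgeR adjusted p = 0.00012). CHMP4B, the main filament subunit, was at 572.8, 591.7 and 594.0 CPM in siNC and at 615.8, 625.3 and 655.5 CPM in siYKT6 samples. All siYKT6 samples were higher, by a log2 fold change of only 0.11 (edgeR adjusted p = 0.012), and the call ended without siNC replicate 1. CHMP4C, the paralog that delays the final cut of cell division when chromatin is trapped in the bridge, moved the other way. It was at 31.5, 33.7 and 32.1 CPM in siNC and at 28.3, 25.6 and 28.5 CPM in siYKT6 samples, without overlap (log2 fold change -0.24, SE 0.0496, edgeR adjusted p = 0.00066). CHMP4A was at 111.2, 106.6 and 113.0 CPM in siNC and 114.2, 119.1 and 121.9 CPM in siYKT6 samples (log2 fold change 0.10, edgeR adjusted p = 0.040). Its call ended without siNC replicate 1 or 2 or siYKT6 replicate 2 or 3.

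CHMP5 (chromosome 9, 33264879 to 33282069, plus strand), which binds the VPS4 cofactor VTA1, fell. Its siNC samples spread widely, at 164.6, 149.9 and 170.2 CPM, and its siYKT6 samples were at 144.5, 136.1 and 141.2 CPM. The lowest siNC sample was still above the highest siYKT6 sample (log2 fold change -0.20, SE 0.0416, edgeR adjusted p = 0.00073). CHMP2B, a late subunit that helps recruit VPS4, was at 139.4, 135.9 and 142.5 CPM in siNC and at 128.7, 131.8 and 129.0 CPM in siYKT6 samples, a small fall without overlap (log2 fold change -0.10, edgeR adjusted p = 0.026). It was no longer called without siNC replicate 1 or 3 or siYKT6 replicate 1. IST1, which coats membranes from the outside and controls VPS4, rose from 72.0, 75.5 and 72.5 CPM to 81.0, 81.3 and 82.8 CPM (log2 fold change 0.16, edgeR adjusted p = 0.0021). CHMP1B, the partner of IST1 in these coats, was at 51.4 ± 3.20 and 56.8 ± 2.77 CPM (SD, n = 3). Its groups overlapped, and the call (edgeR adjusted p = 0.026) ended without siNC replicate 1 or 2 or siYKT6 replicate 3. CHMP1A lay just on the other side of the threshold, with a log2 fold change of 0.14 and an edgeR adjusted p = 0.051. CHMP2A, CHMP3 and CHMP7, the last known for sealing the nuclear envelope, had log2 fold changes of 0.05, -0.03 and 0.08 and were not called.

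Of the VPS4 group, which disassembles the ESCRT-III filament, VPS4B rose. It was at 64.6, 64.2 and 58.1 CPM in siNC and at 74.5, 75.5 and 71.9 CPM in siYKT6 samples (chromosome 18, 63389190 to 63422483, minus strand). All siYKT6 samples were above the siNC samples (log2 fold change 0.25, SE 0.0426, edgeR adjusted p = 9.8e-05). VPS4A, the other ATPase, was at 81.7 ± 2.74 and 86.8 ± 1.87 CPM (SD, n = 3) and was not called (edgeR adjusted p = 0.087). VTA1, which stimulates the ATPase, had a log2 fold change of -0.06 (edgeR adjusted p = 0.210).

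PDCD6IP and SDCBP, whose products ALIX and syntenin join syndecan cargo to ESCRT-III on the way into exosomes, were called in opposite directions. SDCBP was at 122.5, 130.1 and 123.8 CPM in siNC samples. In siYKT6 samples it was at 146.4, 147.6 and 144.9 CPM, all above the siNC range (log2 fold change 0.22, SE 0.0346, edgeR adjusted p = 3.4e-05). PDCD6IP fell from 114.9 ± 2.96 to 107.0 ± 0.785 CPM (SD, n = 3, edgeR adjusted p = 0.027), a call that ended without siNC replicate 2 or 3 or siYKT6 replicate 1 or 2. SDCBP2, a paralog of syntenin, had only 21, 20 and 13 counts in siNC and 40, 27 and 27 counts in siYKT6 samples and was not called (edgeR adjusted p = 0.284).

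Among the tetraspanins, CD81 fell, CD63 rose slightly and CD9 was not called. CD81 (chromosome 11, 2376177 to 2397419, plus strand), which spans the membrane of many exosomes and pairs with immunoglobulin proteins at the cell surface, was at 14.1, 15.9 and 15.1 CPM in siNC samples. It was at 12.0, 12.1 and 11.9 CPM in siYKT6 samples, which lay close together below the siNC range (log2 fold change -0.32, SE 0.0623, edgeR adjusted p = 0.00034). CD63, the tetraspanin of late endosomes and lysosomes, was at 103.8, 104.3 and 101.2 CPM in siNC and 109.5, 109.3 and 114.0 CPM in siYKT6 samples. The groups did not overlap (log2 fold change 0.11, edgeR adjusted p = 0.025), but the call ended without siNC replicate 3 or siYKT6 replicate 3. CD9 was at 21.1 ± 0.141 and 22.7 ± 0.829 CPM (SD, n = 3, edgeR adjusted p = 0.127). CD82, known as a suppressor of metastasis, was at 14.1 ± 0.153 and 12.7 ± 0.341 CPM (SD, n = 3, edgeR adjusted p = 0.055). TSPAN4, which marks migrasomes, was at 2.21 CPM in both groups.

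The flotillins, scaffold proteins of membrane microdomains that are often found on exosomes, both rose. FLOT1 (chromosome 6, 30727709 to 30742733, minus strand) was at 67.1, 63.6 and 68.8 CPM in siNC and at 80.9, 85.6 and 82.8 CPM in siYKT6 samples. The groups were far apart (log2 fold change 0.32, SE 0.0395, edgeR adjusted p = 1.7e-06). FLOT2 rose from 58.7 ± 2.07 to 63.8 ± 2.62 CPM (SD, n = 3, edgeR adjusted p = 0.032), and this call ended without siNC replicate 1 or 2 or siYKT6 replicate 1 or 3. SMPD3, the neutral sphingomyelinase whose ceramide lets vesicles bud without ESCRT, had 28, 44 and 53 counts in siNC and 37, 44 and 34 counts in siYKT6 samples. At this depth no difference was detectable (log2 fold change -0.34, SE 0.253, edgeR adjusted p = 0.351).

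**Figure D2:**
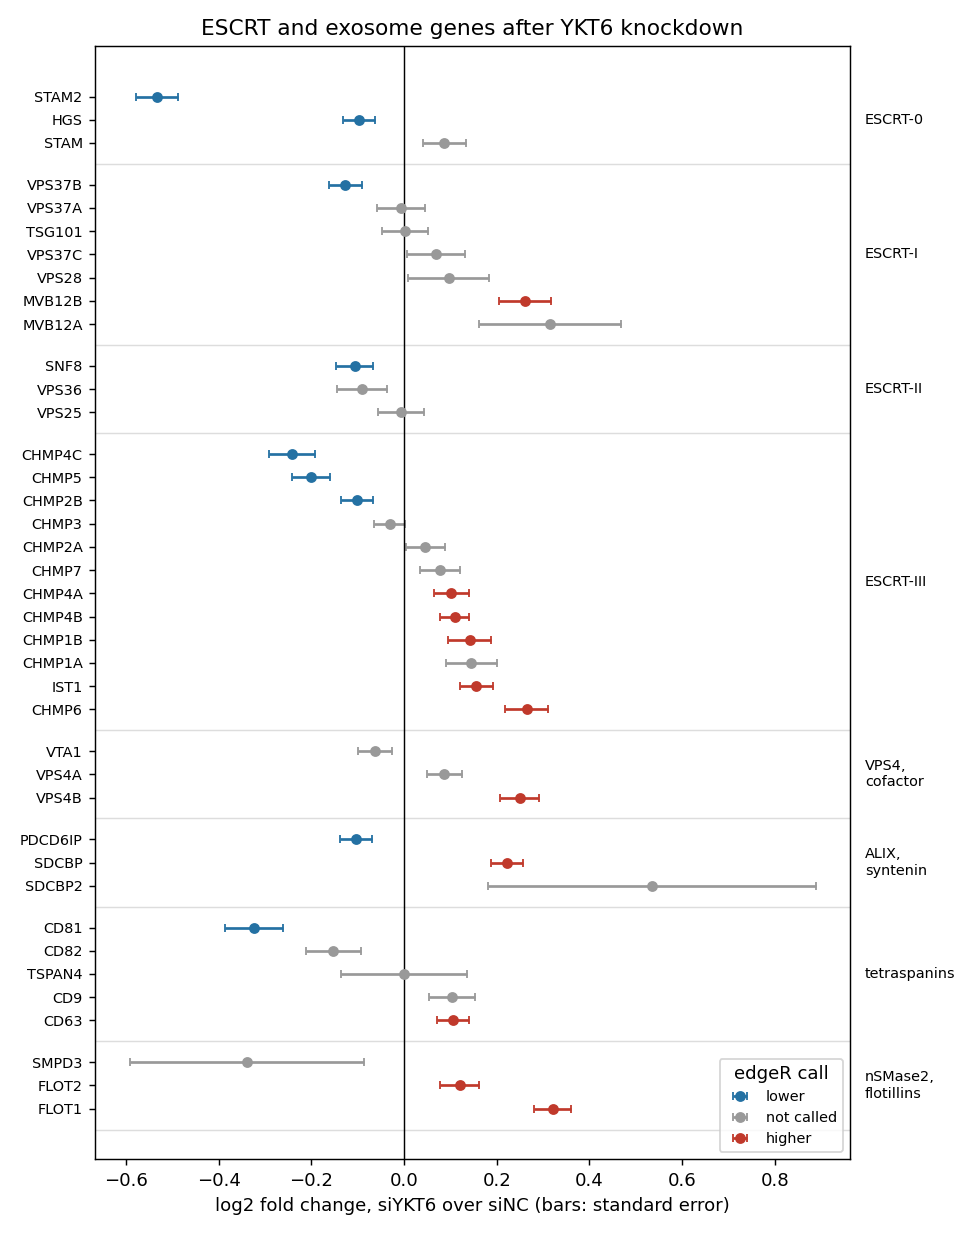
Log2 fold change of siYKT6 over siNC for the 39 members (points; bars are standard errors from edgeR; n = 3 samples a group), grouped by complex and coloured by the edgeR call at an adjusted p under 0.05. Higher (11) and lower (9) calls are spread over the groups, both directions within ESCRT-I, ESCRT-III, ALIX and syntenin, and the tetraspanins, and a single direction in the other groups, and most lie between -0.3 and 0.3; nSMase2 is the product of SMPD3.

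Levels between genes were compared as CPM per kilobase of annotated exon. The filament subunit CHMP4B stood far above all other members, at 356.1 ± 7.1 in siNC and 384.1 ± 12.6 CPM per kilobase in siYKT6 samples (SD, n = 3). CHMP5 followed at 67.6, CHMP4A at 45.7, CHMP2B at 44.8 and CD63 at 39.2 CPM per kilobase in siNC samples, and SDCBP2 and SMPD3 were lowest at 0.135 and 0.108. CHMP4A and CHMP2B, neighbours in this order, differed by less than their spread. With the length of the canonical transcript in place of all annotated exons, CHMP4B was again first, followed by CHMP4A, CD63, CHMP2A and CHMP5, and CD81 moved from place 34 to place 26 of the 39. CHMP4B alone supplied 54.6% to 57.6% of the summed ESCRT-III level per kilobase of annotated exon. This share was higher in each siYKT6 sample than in any siNC sample. It is smaller with canonical lengths, where CHMP4B stood at 365.9, CHMP4A at 112.6 and CHMP2A at 87.0 CPM per kilobase in siNC samples. CD63 supplied 75.8% to 78.5% of the level summed over the 5 tetraspanins among the members. This sum leaves out the other tetraspanins, of which TSPAN6 stood at 17.1 CPM per kilobase in siNC samples. Across the 39 members, the level per kilobase went down with the GC content of the transcript (Spearman's rho -0.352, against -0.166 over 15724 tested genes). This is a description over genes measured in the same libraries. The GC content is that of the canonical transcript, while the level is per kilobase of all annotated exons. The rho was not taken with canonical lengths, with which VPS28, like CD81, moved up, from place 35 to place 30. Of the GC-rich genes, CD81, VPS28, MVB12A and TSPAN4 stood at places 34 to 37, but HGS and CHMP6 at places 14 and 15. Whether GC content affected these places was not tested. The log2 fold change had a rho with GC content of 0.22 over the members and 0.0669 over 15724 tested genes.

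**Figure D3:**
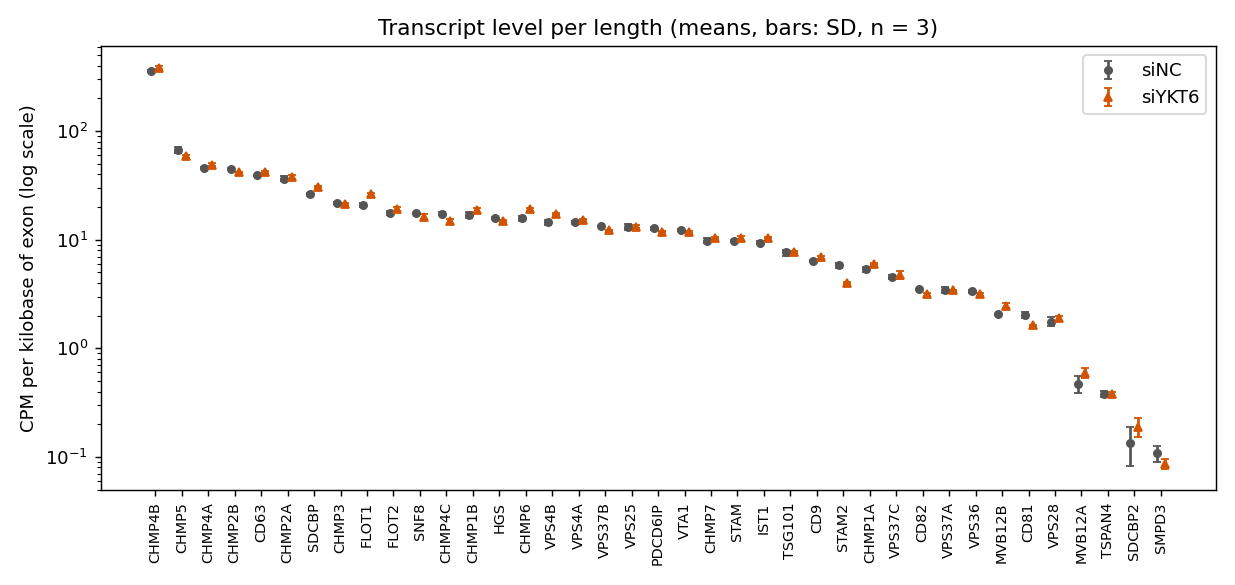
CPM per kilobase of annotated exon for the 39 members on a log axis, in descending order of the siNC mean (circles, siNC; triangles, siYKT6; bars, SD, n = 3). CHMP4B is highest at 356.1 in siNC samples, SMPD3 lowest at 0.108, and the difference between the groups is small beside the range between genes.

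Summed per kilobase over their members, ESCRT-0 went from 31.3 ± 0.353 to 29.1 ± 0.354 (SD, n = 3), 92.9% of the siNC level, with no overlap between the groups. ESCRT-I stood at 99.3% and ESCRT-II at 95.7% of the siNC level, with overlapping groups. ESCRT-III, in which CHMP4B weighed most, was at 104.0%, the VPS4 group at 107.0%, ALIX and syntenins at 109.0% and the tetraspanins at 105.0%. The sum of SMPD3 and the flotillins was at 117.0%, from 38.6 ± 1.39 to 45.3 ± 0.653 (SD, n = 3). In these last 5 sums no siYKT6 sample fell within the siNC range, although for ESCRT-III the nearest samples were almost level. The sums weight each gene by its level and were not tested.

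Several complexes can be built from alternative paralogs, so the ratio within 11 pairs of related genes was taken in each sample, a measure that does not depend on scaling. The log2 ratio of STAM to STAM2 was 0.64, 0.74 and 0.83 in siNC and 1.30, 1.42 and 1.36 in siYKT6 samples. STAM thus stood at 1.67 times the level of STAM2 per kilobase of annotated exon in siNC cells and at 2.57 times in siYKT6 cells. With the lengths of the canonical transcripts these ratios were 1.10 and 1.69, since the length used sets the ratio itself but not its change between the groups. The log2 ratio of CD9 to CD81 was 1.74, 1.58 and 1.64 in siNC and 2.14, 2.03 and 2.07 in siYKT6 samples, higher in all of the latter. CHMP4B over CHMP4C went from a mean log2 ratio of 4.36 ± 0.0385 to 4.71 ± 0.0825 (SD, n = 3), from 20.5 to 26.1 times as a linear ratio. CD63 over CD82 rose by 0.26 and FLOT1 over FLOT2 by 0.20 between the group means, and VPS37B over VPS37C dropped by 0.19 on the log2 scale (a difference of -0.12 without siYKT6 replicate 1). In these 6 pairs the groups did not overlap (two-sided exact permutation test, p = 0.1, the lowest value possible, and 0.183 after Benjamini-Hochberg adjustment over the 11 pairs), so none could pass the threshold in this design. In the 5 other pairs the groups overlapped. CHMP1A against CHMP1B and CHMP4A against CHMP4B had mean differences of -0.0016 and -0.0062 (exact permutation test, p = 1), and VPS4A against VPS4B one of -0.16 (exact permutation test, p = 0.2), or -0.0879 without siNC replicate 3.

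**Figure D4:**
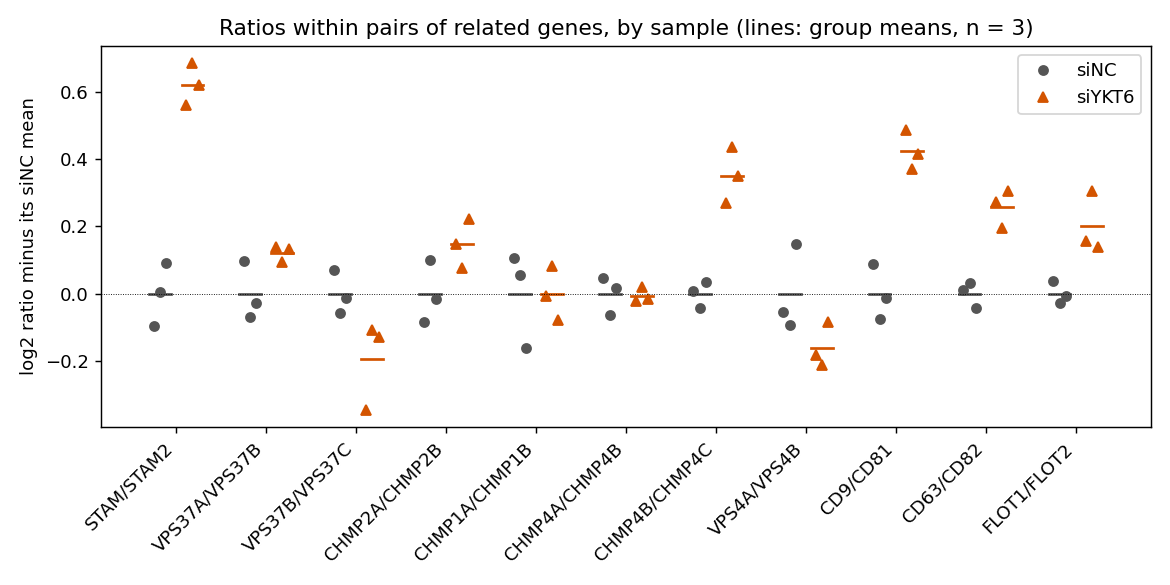
Log2 ratio of the level per kilobase within 11 pairs of related genes in each sample, minus the mean of the siNC samples (circles, siNC; triangles, siYKT6; lines, group means, n = 3). STAM over STAM2 shows the widest gap (0.62), and CHMP1A over CHMP1B (-0.0016) and CHMP4A over CHMP4B (-0.0062) show almost none.

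Transcripts of proteins that work with ESCRT also moved in both directions. Of 29 tested associated factors (adaptors, ubiquitin ligases, deubiquitinases and midbody proteins), 10 rose, 6 fell and 13 were not called, and their median log2 fold change was 0.04. The share called was 55.2%, near the 49.7% of all genes of at least 10 CPM. CEP55, which brings ESCRT to the midbody at the end of cell division, rose from 158.8 ± 2.63 to 196.5 ± 3.60 CPM (SD, n = 3), and CC2D1B, which binds CHMP4 proteins, had a log2 fold change of 0.33. The adaptor gene GGA2 (0.25) and the ubiquitin ligase gene WWP2 (0.27) were also called higher. STAMBP, which encodes the deubiquitinase AMSH that binds STAM proteins, fell from 44.5 ± 0.727 to 33.0 ± 3.54 CPM (SD, n = 3, edgeR adjusted p = 3.9e-06). Its relative STAMBPL1 had a log2 fold change of -0.77, the adaptor TOM1L1 one of -0.35 and the ubiquitin ligase ITCH one of -0.15, all called. The word CTCTACA, picked from these data, is in the canonical 3′ UTRs of 4 of the 6 genes that fell (STAMBP, TOM1L1, ITCH and USP8), of 1 of the 10 that rose (CC2D1B) and of 1 of the 13 not called (GGA3). STAMBPL1, with the strongest fall of this list, lacks it.

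Of 28 tested genes of exosome release and cargo, 5 rose, 11 fell and 12 were not called, with a median log2 fold change of -0.08. Of this list 39.3% fell, against 16.3% of all genes tested and 26.2% of those of at least 10 CPM, and 57.1% were called in either direction. The list was chosen with earlier results of these data known, so these shares are a description only. With upper quartile scaling or no filter on low counts, 8 were called lower. MFGE8, a secreted protein that coats exosomes, rose from 23.4 ± 0.905 to 34.2 ± 0.180 CPM (SD, n = 3, edgeR adjusted p = 6e-09). RALB, a GTPase of the secretory route, was called higher at a log2 fold change of 0.33, and so were RAB27A, which docks multivesicular bodies at the plasma membrane, at 0.27 and its effector EXPH5 at 0.29. PTGFRN, the immunoglobulin protein that pairs with CD9 and CD81, fell from 108.5 ± 0.955 to 76.4 ± 1.22 CPM (SD, n = 3, edgeR adjusted p = 2.9e-10). The endosomal GTPase genes RAB31 and RAB7A had log2 fold changes of -0.52 and -0.30, and ADAM10, a metalloprotease carried by tetraspanins, one of -0.18, all called lower. The word is in 3 of the 11 genes that fell (RAB31, ADAM10 and RAB27B), in 1 of the 12 not called (HPSE) and in none that rose.

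Of 28 other tetraspanins, 26 had a row and 19 enough counts to be tested, of which 1 rose, 7 fell and 11 were not called. The share called was 42.1% and the share that fell 36.8%, against 30.8% and 16.3% of all genes tested, and the median log2 fold change was -0.13, against 0.00. This list, too, was chosen with earlier results of these data known. TSPAN13, the only 1 of the 7 that holds the word, was at 17.2 ± 0.509 and 11.3 ± 0.229 CPM (SD, n = 3, edgeR adjusted p = 6.1e-08). TSPAN31, TSPAN9 and TSPAN17 had log2 fold changes of -0.40, -0.37 and -0.26. TSPAN15 was the 1 that rose, from 2.87 ± 0.254 to 3.95 ± 0.323 CPM (SD, n = 3, edgeR adjusted p = 0.0043). Without siNC replicate 2, 4 of these tetraspanins were called lower, and without siNC replicate 1 or 3, 2 were called higher. For the exosome list, 7 were called lower without siNC replicate 2 or siYKT6 replicate 2.

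Some members share exons with other genes of the table, so their counts can include reads of those genes. CHMP4A, at 110.3 CPM in siNC samples, shares 68.8% and 26.7% of its exonic length with a pair of genes on the same strand. That pair stood at 114 and 124 CPM in siNC samples. CHMP3 shares 10.8% with RNF103-CHMP3, a readthrough of both genes. VPS37B shares 27.9% of its length with a neighbour on the same strand, which stood at 60.2 CPM in siNC samples. VPS4A shares 22.0% and 21.0% with neighbours at 26.6 and 55.5 CPM in siNC samples. CHMP4C shares 13.4% with ZFAND1 on the opposite strand, which stood at 66.9 CPM in siNC samples. CHMP6 shares 21.5% and CHMP1B 18.1% with genes on the opposite strand, which stood at 0.565 and 15.9 CPM in siNC samples. IST1 shares 1.13% to 3.50% with each of ATXN1L, PKD1L3 and ZNF821. HGS, SNF8 and CD63, which were also called, share up to 11.4% with a single gene. STAM2, CHMP5, VPS4B, SDCBP, MVB12B and FLOT1 share no exonic base with another gene of the table, and CD81 0.406% of its length.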

How the data were processed

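Total RNA of 6 samples was made into stranded mRNA libraries for an MGI sequencer. After read filtering (fastp 0.23.0) and alignment to GRCh38, the authors used featureCounts (Subread 1.5.1) to obtain the deposited raw counts of 36887 genes, listed with each gene's exon length. Which aligner and strand setting they used was not given in the sources used here. Per sample, 68.8% to 70.0% of counts from 1 to 20 were even, which counting each pair by both its reads would give, so counts need not be independent molecules.

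Of these genes, 21036 passed filterByExpr, and siYKT6 was compared with siNC in R 4.3.3 by edgeR 4.0.16 (TMM scaling, quasi-likelihood test), adjusted by Benjamini-Hochberg over all genes tested. DESeq2 1.42.0, limma-voom (limma 3.58.1), other scalings and filters, halved counts, a replicate block and leaving out each sample were the alternatives. The methods of the study name DESeq2. The mean chi-square per gene between replicates was 3.63 to 5.99. A value near 1 would hold for independent counts drawn again from 1 library, and a higher one where both reads of a pair were counted.

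The members and lists were chosen with earlier results of these data known. The text names all members, gives per-sample values for called members with an absolute log2 fold change of at least 0.25, the 4 highest per length and others added after their values were seen, and names up to 4 called genes per direction and other list with the smallest p. Transcript sequences came from GENCODE v44 (GRCh38), which matched all 39 members. TSPAN16 and UPK1A were not analysed here.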

Additional observations from a re-analysis of the deposited data

How the results depend on the processing

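Of the members, 11 were called higher and 9 lower. With upper quartile scaling 5 were called lower, and with no filter on low counts 5 were. HGS, SNF8, CHMP2B and PDCD6IP lost their calls in both. CHMP1A gained a call with DESeq2's size factors, upper quartile scaling, at least 1 CPM in every sample and limma-voom. It also gained one with halved counts and without siNC replicate 1. VPS4A gained a call with upper quartile scaling, and CD82 with at least 1 CPM in every sample. Leaving out 1 sample gave 7 to 10 higher and 5 to 9 lower members, 7 to 9 lower genes of exosome release and cargo, and 1 to 2 higher and 4 to 7 lower other tetraspanins. DESeq2 called 11 members higher and 8 lower, and limma-voom 12 and 9. Over all genes, upper quartile scaling gave 3475 higher and 3094 lower and no filter 3309 and 3181, against 3066 and 3419. No scaling moved the median of all genes by more than 0.02. No called member changed sign in any analysis.

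Members with values near 0 changed sign without being called. TSG101 was at -0.0012 with limma-voom, -0.0018 with halved counts and -0.0417 to 0.0480 with 1 sample left out. VPS37A was at 0.0122 with upper quartile scaling, 0.0064 with no filter and -0.0437 to 0.0415 with 1 sample left out, and VPS25 at 0.0120, 0.0061 and -0.0533 to 0.0301 in the same order. VPS37C ranged from -0.0044 to 0.1086 with 1 sample left out. TSPAN4 was at 0.0005 with DESeq2's size factors, 0.0171 with upper quartile scaling, 0.0109 with no filter, 0.0004 with at least 1 CPM in every sample, 0.0012 with DESeq2, 0.0075 with halved counts and -0.0391 to 0.0471 with 1 sample left out. The log2 ratio of CHMP1A to CHMP1B changed by -0.0832 to 0.0520 and that of CHMP4A to CHMP4B by -0.0375 to 0.0166 with 1 sample left out.

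Samples with the same replicate number did not deviate together over the genes tested (correlations of 0.0065, -0.0047 and 0.0092). With 3 samples a group this cannot settle whether they were prepared together. With the replicate number as a block, 11 members were called higher and 8 lower, SNF8 losing its call, and 2958 and 3312 of all genes. Depth limits SDCBP2 and SMPD3, whose counts per sample were 13 to 53.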
